A study of Mus musculus with 6 samples.

Results

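Endothelin and nitric oxide are the opposing vasoactive signals of the vessel wall, and 9 genes of their synthesis, reception and control were followed in sorted kidney endothelial cells (ECs): Edn1, Ece1, Ednra, Ednrb, Nos3, Nostrin, Gch1, Ddah1 and Ddah2. They were listed by symbol from their known roles, and all 9 were found among the 55401 genes listed in the counts and among the 18438 genes tested. The libraries came from 3 Cre-negative mice (CTRL, genotype Cre -/-; Rbpjf/f) and 3 Cre-positive littermates (RbpjΔEC, genotype Cre +/-; Rbpjf/f), all male, with 1 library per mouse. All were of a mouse line whose label joins B6-Tg(Cdh5(PAC-cre/ERT21Rha with the Rbpj allele Rbpsuh tm3Hon/Rbrc, Rbpsuh being an older symbol of Rbpj. Both groups carried the floxed Rbpj alleles and both received tamoxifen, 5 doses of 1.5 mg into the peritoneum at 8 weeks of age. Only RbpjΔEC mice carried the Cre-ERT2 recombinase, driven by the Cdh5 promoter, so that the deletion of Rbpj, the DNA-binding partner of Notch receptors, was directed to ECs of all vessels and not to those of the kidney alone. Kidneys were taken 12 weeks after induction, and the labels give an age of 21 weeks. Cells were enriched on magnetic columns and sorted as CD31+ CD45- cells, and stranded total RNA libraries were made from them.

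Endothelin-1, the peptide encoded by Edn1, is made by ECs as an inactive precursor and is cut to its active form by the endothelin-converting enzyme Ece1. It constricts smooth muscle through the receptor ETA (Ednra), whereas the receptor ETB (Ednrb) on ECs clears the peptide and triggers release of nitric oxide. Nitric oxide is made from arginine by the endothelial synthase Nos3, which needs the cofactor tetrahydrobiopterin (first enzyme Gch1), is moved within the cell by Nostrin, and is inhibited by methylated arginines that Ddah1 and Ddah2 break down.

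The total counts on genes ranged from 39649171 to 47726850 per library, so that a count of 3, taken as the floor, stood at 0.0634 to 0.0749 CPM (the count of a gene relative to its library's total, after TMM normalization in edgeR). CTRL 1 listed counts on 33764 genes and the other 5 libraries on 25629 to 26785. All 10 pan-endothelial markers were present, from Kdr at 4924 to 6261 CPM to Cldn5 at 18.0 to 35.0 CPM. Their summed level was 16120 ± 830 CPM in CTRL and 14230 ± 413 CPM in RbpjΔEC (SD, n = 3 each), without overlap between the groups (p = 0.1 in a two-sided exact permutation test, which cannot go lower with 3 libraries against 3). Rbpj itself was at 29.2 ± 0.964 CPM in CTRL and 28.2 ± 1.87 CPM in RbpjΔEC (SD, n = 3 each, log2 fold change -0.05, edgeR quasi-likelihood test, adjusted p = 0.793). A count over the whole gene does not separate transcripts that lack the floxed part, so it does not check the labels. The 12 immediate-early genes, which respond within minutes to handling and other stimuli, summed to 6111 ± 541 CPM in CTRL and 8434 ± 787 CPM in RbpjΔEC (SD, n = 3 each), with 5 of them called higher.

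RBPJ binds DNA at the core TGGGAA, and the promoters of the 9 genes were read for these letters on both strands. RefSeq promoters (GRCm38.p6, 250 bases before to 50 after a transcription start) were found for 8 of the 9 genes, in 11 entries of which Ece1 had 4. Matches were in 3 entries, and 25.6% of all 32851 promoter entries of this length held at least 1. The AP-1 letters TGANTCA (in 7.81% of all entries) were in none of the 11, and the GATA letters AGATAA (in 11.2%) were in Edn1 only, at position 9 of its transcribed part, on the minus strand. The 3 motifs did not overlap one another in these entries. The sequences below are the 250 bases before the start of the 3 entries with TGGGAA, with the match in capitals, and of Edn1, the ligand, which had none. They are written 5′ to 3′ along the transcribed strand, and TTCCCA is the same site read on the other strand.

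Ece1, last of its entries, chr4:137920543-137920792, plus strand, match from position -229 (the base before the start is -1):
Ece1: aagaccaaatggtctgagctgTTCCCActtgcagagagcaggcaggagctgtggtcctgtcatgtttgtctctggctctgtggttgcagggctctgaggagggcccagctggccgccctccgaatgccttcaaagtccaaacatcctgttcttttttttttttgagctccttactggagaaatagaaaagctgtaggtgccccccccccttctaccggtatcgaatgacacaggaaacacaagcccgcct

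Nostrin, chr2:69135550-69135799, plus strand, match from position -134:
Nostrin: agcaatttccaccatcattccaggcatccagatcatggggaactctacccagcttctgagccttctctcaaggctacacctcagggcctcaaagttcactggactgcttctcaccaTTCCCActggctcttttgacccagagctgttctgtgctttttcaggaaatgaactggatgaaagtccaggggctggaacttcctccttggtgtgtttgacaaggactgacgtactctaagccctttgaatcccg

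Ddah2, chr17:35058785-35059034, plus strand, match from position -215:
Ddah2: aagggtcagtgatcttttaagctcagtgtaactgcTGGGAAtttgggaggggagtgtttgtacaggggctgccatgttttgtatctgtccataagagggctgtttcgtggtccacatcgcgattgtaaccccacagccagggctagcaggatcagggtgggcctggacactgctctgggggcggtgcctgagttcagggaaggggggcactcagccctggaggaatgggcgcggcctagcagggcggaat

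Edn1, chr13:42301226-42301475, plus strand, no match:
Edn1: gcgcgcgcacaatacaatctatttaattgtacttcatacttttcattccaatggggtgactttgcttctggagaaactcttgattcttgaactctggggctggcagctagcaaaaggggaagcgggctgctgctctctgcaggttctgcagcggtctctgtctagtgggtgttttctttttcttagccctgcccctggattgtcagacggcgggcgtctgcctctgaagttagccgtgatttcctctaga

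A match is only a description of the letters, and no binding was measured here. The 3 genes with a match had log2 fold changes of -0.24 for Ece1, -0.13 for Nostrin and -0.09 for Ddah2, and Edn1, without one, had -0.45. None of these passed the test described next.

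All 9 genes were counted in every library, but at very different levels. Divided by the length of each gene's exons, Ece1 was the most abundant at 239.9 to 312.8 CPM per kb over the 6 libraries, followed by Ednrb at 109.8 to 166.0 CPM per kb. Nos3 (46.2 to 60.1 CPM per kb) and Nostrin (39.7 to 46.5 CPM per kb) came next, and the ranges of these neighbours overlapped. Below them stood Ddah2 at 26.8 to 37.5, Edn1 at 13.8 to 26.1 and Gch1 at 5.38 to 6.15 CPM per kb, with no overlap of neighbouring ranges. Ddah1 (0.801 to 1.67 CPM per kb) and Ednra (0.0218 to 0.119 CPM per kb) were the lowest. Ranked by mean CPM among the tested genes, Ece1 was at percentile 99.8, Ednrb at 98.8 and Nos3 at 95.9, whereas Ddah1 was at 41.8 and Ednra at 4.06. The 2 receptors were thus at opposite ends, with the EC receptor high and the smooth muscle receptor close to the floor.

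**Figure D1:**
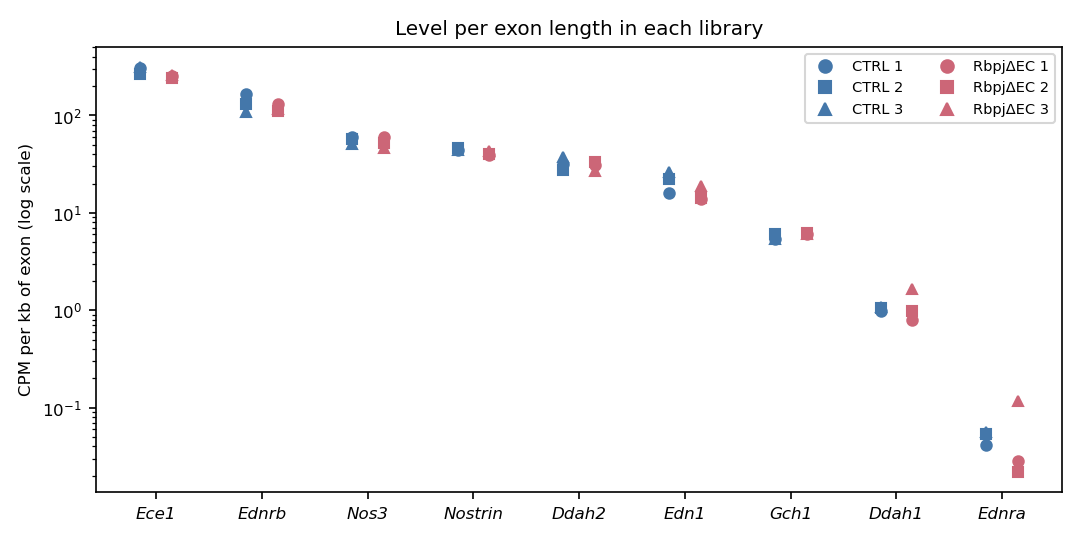
Level of each gene in each of the 6 libraries, in CPM per kb of exon on a log axis; blue points are CTRL, red points are RbpjΔEC, and the shape gives the replicate number. Ece1 lies between 239.9 and 312.8 and Ednra between 0.0218 and 0.119, with Nos3 and Nostrin the one pair of neighbours that overlaps.

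To ask whether loss of endothelial Rbpj changed this axis, each gene was compared between 3 RbpjΔEC and 3 CTRL libraries with edgeR's quasi-likelihood test, adjusted by Benjamini-Hochberg over all 18438 genes with a threshold of 0.05. None of the 9 genes was called in either direction by edgeR, and none by DESeq2. Over all tested genes the test called 209 (1.13%), of which 103 (0.559%) were lower and 106 (0.575%) were higher in RbpjΔEC. With scaling by library size alone the split was 82 lower and 159 higher, and none of the 9 genes was called. At an unadjusted p under 0.05, edgeR gave 1 of the 9 genes, Ece1, against 17.5% of all tested genes (8.62% lower and 8.88% higher). DESeq2, run without the low-count filter, gave Ece1 and Edn1, against 3265 of the 38324 genes it tested. The groups did not overlap in 3 of the 9 genes, Ece1 and Nostrin being lower and Gch1 higher in RbpjΔEC, and in 23.0% of all tested genes. The fold changes were below 0 for 6 genes and above 0 for 3, with a median log2 value of -0.09, and the median of all tested genes was 0.00721. In sorted bulk cells, fewer cells of one EC type and less RNA per cell cannot be told apart, and this holds for every level below.

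**Figure D2:**
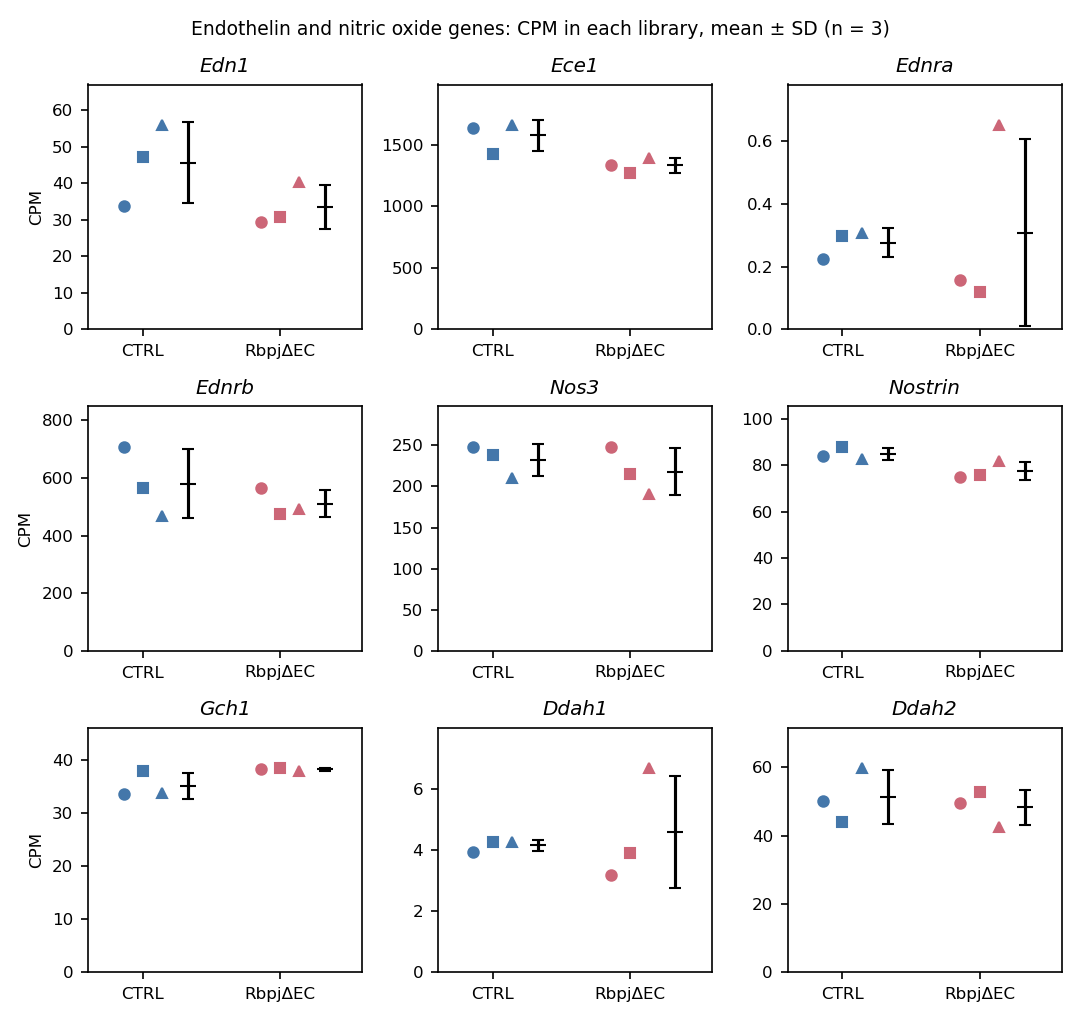
CPM of each of the 9 genes in each library, with the mean and SD of each group (n = 3) as bars beside the points; blue is CTRL, red is RbpjΔEC, and every axis starts at 0. The groups are apart for Ece1, Nostrin and Gch1 only, and RbpjΔEC 3 stands above the other libraries for Ednra and Ddah1.

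Edn1, the ligand (ENSMUSG00000021367.8, GRCm38 chromosome 13, 42301476 to 42307990, plus strand), had the largest estimated difference of the 9 and a wide spread. It was at 33.9, 47.3 and 55.9 CPM in CTRL 1 to 3 and at 29.5, 30.8 and 40.4 CPM in RbpjΔEC 1 to 3. The groups overlapped, since RbpjΔEC 3 lay above CTRL 1, and 2 of 3 RbpjΔEC libraries lay below every CTRL library. In the fit the log2 fold change was -0.45 ± 0.203 (SE, edgeR, adjusted p = 0.315). This put Edn1 in RbpjΔEC at 73.3% of CTRL, with a 95% confidence interval of 52.5 to 102.3%. Without the filter on low counts, a setting under which edgeR called 1436 genes in all, the adjusted p of Edn1 was 0.00322.

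Edn1 is known from arterial and glomerular ECs, and its values were set beside markers of these vessels. Of the 7 glomerular EC markers 6 had fold changes below 0, 5 of them without overlap between the groups, with a median log2 value of -0.54, and 1, Lpl, was called lower, where 23.0% of all tested genes did not overlap and 0.559% were called lower. Their sum was 2065, 2565 and 3371 CPM in CTRL and 1434, 2021 and 2720 CPM in RbpjΔEC, with overlap (two-sided exact permutation test, p = 0.4). Cyp26b1 was uneven, from 213.9 to 1108 CPM over the libraries, and without it the sum was 1833, 2298 and 2262 CPM in CTRL and 1220, 1271 and 1680 CPM in RbpjΔEC, with no overlap (exact permutation test, p = 0.1). Leaving it out was decided after the data were seen. Of the 10 arterial markers 8 had fold changes below 0, 6 of them without overlap, with a median log2 value of -0.47, and 1, Fbln5, was called lower, read against the same shares of all tested genes. Dll4, a Notch ligand, was higher in all RbpjΔEC libraries and was not called. The arterial sum, of which Efnb2 held 46.2%, was 1952 ± 73.6 CPM in CTRL and 1828 ± 68.6 CPM in RbpjΔEC (SD, n = 3 each, exact permutation test, p = 0.2).

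Relative to these sums the groups overlapped in Edn1. It stood, per 1000 CPM of the 7 glomerular markers, at 16.4, 18.5 and 16.6 in CTRL and at 20.6, 15.2 and 14.8 in RbpjΔEC (means 17.1 ± 1.14 and 16.9 ± 3.2, SD, n = 3 each, exact permutation test, p = 0.9). Without Cyp26b1, per 1000 CPM of the other 6, it stood at 18.5, 20.6 and 24.7 in CTRL and at 24.2, 24.2 and 24.0 in RbpjΔEC (exact permutation test, p = 0.4). The order of the 2 group means thus depended on 1 marker. Per 1000 CPM of the arterial sum the means were 23.3 ± 4.91 in CTRL and 18.4 ± 4.0 in RbpjΔEC (exact permutation test, p = 0.2), and per 1000 CPM of the pan-endothelial sum they were 2.84 ± 0.68 and 2.36 ± 0.49 (exact permutation test, p = 0.3). The part of either vessel type in the Edn1 values was not tested further.

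**Figure D3:**
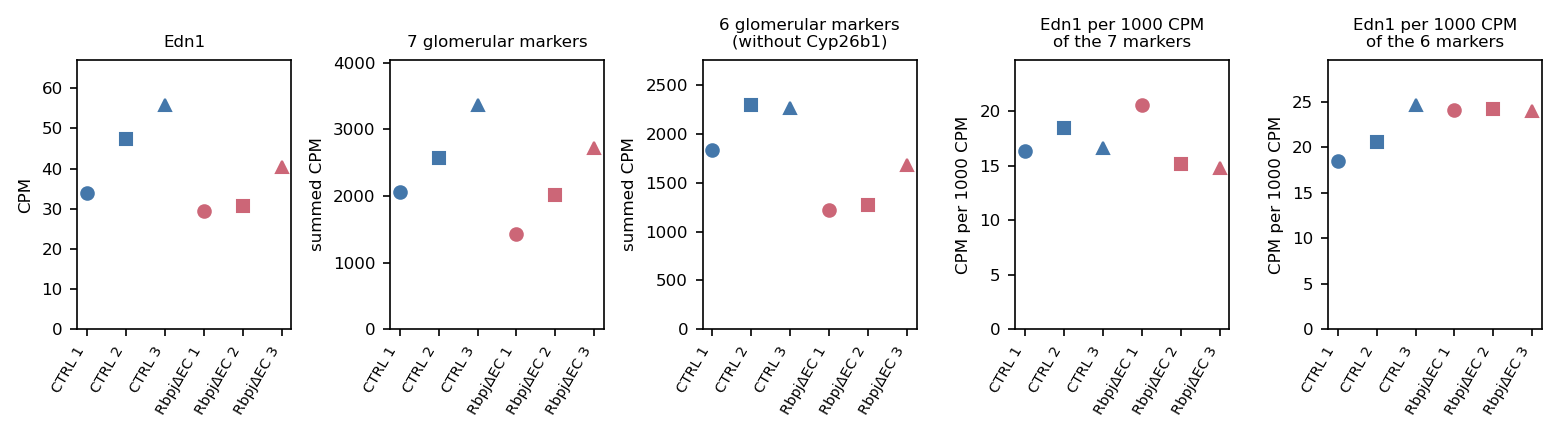
Edn1 in CPM, the summed CPM of 7 glomerular EC markers and of 6 of them without Cyp26b1, and Edn1 per 1000 CPM of each sum, 1 point per library, blue for CTRL and red for RbpjΔEC. The groups overlap in the sum of 7 and not in the sum of 6, and in both ratios of Edn1 they overlap, between 14.8 and 20.6 for the 7 markers and between 18.5 and 24.7 for the 6.

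Ece1, the converting enzyme (ENSMUSG00000057530.14, chromosome 4, 137862237 to 137965229, plus strand), was the gene of the 9 with the smallest p. It was at 1640, 1428 and 1658 CPM in CTRL and at 1336, 1272 and 1394 CPM in RbpjΔEC. All 3 RbpjΔEC libraries were below all 3 CTRL libraries, although RbpjΔEC 3 and CTRL 2 were close to each other. This gave a log2 fold change of -0.24 ± 0.0814 (SE, edgeR, adjusted p = 0.158), or 84.7% of CTRL with a 95% confidence interval of 74.9 to 95.8%. Without the low-count filter the adjusted p was 0.0366. The pan-endothelial sum was also lower in RbpjΔEC, and per 1000 CPM of that sum Ece1 stood at 97.6 ± 3.11 in CTRL and 93.9 ± 7.0 in RbpjΔEC (SD, n = 3 each), with overlap (exact permutation test, two-sided, p = 0.6). Dividing by marker sums was added after the data were seen.

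The 3 genes whose log2 CPM followed Ece1 most closely over the 6 libraries, among 8788 genes with a mean of at least 10 CPM, were Mmrn1 (Pearson r = 0.996), Rnf13 (r = 0.994) and Ptprb (r = 0.994). Mmrn1 encodes multimerin, a secreted protein of ECs and platelets, and Ptprb encodes an EC phosphatase that acts on VE-cadherin and Tie2. These values are a description over 6 points that share the genotype difference and the library scaling. None of the 3 was called, with adjusted p = 0.175, 0.146 and 0.155 in the edgeR fit.

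Of the receptors, Ednrb (ENSMUSG00000022122.15, chromosome 14, 103814625 to 103844402, minus strand) varied more within CTRL than between the groups. Its level was 708.0, 565.6 and 468.5 CPM in CTRL and 563.6, 474.4 and 492.5 CPM in RbpjΔEC. Every RbpjΔEC library lay inside the CTRL range. Between groups the log2 fold change was -0.19 ± 0.142 (SE, edgeR, adjusted p = 0.538), and the 95% confidence interval allowed 70.2 to 109.9% of the CTRL level. Per 1000 CPM of the pan-endothelial sum the means were 36.1 ± 7.66 and 35.9 ± 3.37 (SD, n = 3 each, exact permutation test, p = 1).

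Ednra (ENSMUSG00000031616.7, chromosome 8, 77663031 to 77724464, minus strand) rested on very few reads, with 9, 14 and 13 counts in CTRL and 7, 5 and 26 counts in RbpjΔEC. In CPM these were 0.225, 0.296 and 0.308 in CTRL and 0.156, 0.119 and 0.649 in RbpjΔEC. RbpjΔEC 3 was above every CTRL library and the other 2 RbpjΔEC libraries were below every CTRL library. The log2 fold change of 0.14 ± 0.680 (SE, edgeR, adjusted p = 0.938) had a 95% confidence interval of 39.5 to 308.3% of CTRL, and without RbpjΔEC 3 it was -0.99. No difference could be detected at this depth.

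As a gene of smooth muscle and pericytes, Ednra was set beside 12 mural markers. Their sum was 306.3, 281.1 and 260.0 CPM in CTRL and 213.7, 219.2 and 239.6 CPM in RbpjΔEC (exact permutation test, two-sided, p = 0.1), and Mylk, which ECs also express, held 65% of it. Of the 11 mural markers tested 3 were called lower (Acta2, Myh11 and Rgs5) and none higher. Kcnj8, a potassium channel of pericytes, went the other way, at 12.4, 9.65 and 11.3 CPM in CTRL and at 18.6, 30.3 and 14.4 CPM in RbpjΔEC, without overlap (log2 fold change 0.93, edgeR, adjusted p = 0.162). Cnn1, the marker below the filter, was at 0.0477 to 0.399 CPM. Per 1000 CPM of the mural sum Ednra stood at 0.733, 1.05 and 1.18 in CTRL and at 0.731, 0.544 and 2.71 in RbpjΔEC. On the log2 scale this ratio differed by 0.08 (exact permutation test, two-sided, p = 1), and its sign turned without RbpjΔEC 3 (-0.62) or without CTRL 1 (-0.12). Against a core of 4 mural markers (Pdgfrb, Notch3, Myh11 and Acta2) Ednra per 1000 CPM was 3.16, 5.52 and 5.35 in CTRL and 5.69, 6.20 and 19.1 in RbpjΔEC. The groups were apart by a narrow gap that rests on 5 to 14 counts, and the log2 difference of 0.95 (p = 0.1, the lowest a two-sided exact permutation test can give here) was 0.39 without RbpjΔEC 3. The 4 core markers had log2 fold changes of -1.37, -1.16, -1.08 and -1.30, and a lower sum raises the ratio to it. Mylk and Kcnj8 were not in the core. The ratios to the core in each library were added after the data were seen.

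Nos3, the endothelial synthase (ENSMUSG00000028978.12, chromosome 5, 24364810 to 24384474, plus strand), was nearly level between the groups. It was at 248.1, 238.4 and 209.7 CPM in CTRL and at 247.4, 215.1 and 190.9 CPM in RbpjΔEC. The groups overlapped, with their highest libraries within 1 CPM of each other and RbpjΔEC 3 below every CTRL library. The log2 fold change was -0.09 ± 0.0988 (SE, edgeR, adjusted p = 0.674), with a 95% confidence interval of 80.8 to 109.1% of CTRL. Exons of Nos3 share 1040 bases with the antisense gene Gm15587 (97 to 181 counts per library) and 294 bases with Atg9b (160 to 240 counts), which lie on the opposite strand. The strand setting of the counting is not given in the sources used here, so the Nos3 values are uncertain by reads from these genes, although Nos3 itself had 7648 to 11285 counts.

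Nostrin, which binds the synthase and guides its internalization (ENSMUSG00000034738.8, chromosome 2, 69135800 to 69189330, plus strand), had the smallest standard error of the 9. It was at 83.9, 87.9 and 82.6 CPM in CTRL and at 75.0, 75.6 and 81.8 CPM in RbpjΔEC. The groups did not overlap, but the gap was narrow, between 82.6 CPM in CTRL 3 and 81.8 CPM in RbpjΔEC 3. The log2 fold change was -0.13 ± 0.0694 (SE, edgeR, adjusted p = 0.357), or 91.4% of CTRL with a 95% confidence interval of 82.3 to 101.5%. Per 1000 CPM of the pan-endothelial sum the groups overlapped, at 5.27 ± 0.452 in CTRL and 5.45 ± 0.421 in RbpjΔEC (SD, n = 3 each, exact permutation test, p = 0.5).

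Gch1, the first and limiting enzyme of tetrahydrobiopterin synthesis (ENSMUSG00000037580.10, chromosome 14, 47153895 to 47189413, minus strand), was the only one of the 9 with every RbpjΔEC library above every CTRL library. It was at 33.6, 37.9 and 33.7 CPM in CTRL and at 38.4, 38.4 and 37.9 CPM in RbpjΔEC. The separation rested on less than 1 CPM, since CTRL 2 nearly reached RbpjΔEC 3. The log2 fold change was 0.13 ± 0.0812 (SE, edgeR, adjusted p = 0.455), or 109.1% of CTRL with a 95% confidence interval of 96.5 to 123.3%. Per 1000 CPM of the pan-endothelial sum Gch1 stood at 2.18 ± 0.269 in CTRL and 2.69 ± 0.0599 in RbpjΔEC (SD, n = 3 each), again without overlap (two-sided exact permutation test, p = 0.1). In that scaling, as in the scaling by the arterial sum, Gch1 was the 1 gene of the 9 whose groups did not overlap, and with the glomerular sum it was Ddah1. The share of all tested genes without overlap was 23.0% in CPM and was not computed under these scalings. The pan-endothelial, arterial and glomerular sums had lower means in RbpjΔEC, which raises the ratios to them. In CPM the groups of Ddah1 overlapped.

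The 2 dimethylarginine hydrolases differed in level, with Ddah2 the higher. Ddah2 (ENSMUSG00000007039.12, chromosome 17, 35059035 to 35062095, plus strand) was at 50.1, 43.9 and 59.7 CPM in CTRL and at 49.5, 52.7 and 42.6 CPM in RbpjΔEC. Its groups overlapped, and the log2 fold change was -0.09 ± 0.117 (SE, edgeR, adjusted p = 0.750), with a 95% confidence interval of 78.8 to 112.8% of CTRL. Ddah1 (ENSMUSG00000028194.15, chromosome 3, 145758675 to 145894277, plus strand) was at 3.94, 4.25 and 4.26 CPM in CTRL and at 3.19, 3.91 and 6.66 CPM in RbpjΔEC. The 3 CTRL libraries were close to one another, whereas RbpjΔEC 3 was far above them and the other 2 RbpjΔEC libraries were below them. The log2 fold change was 0.14 ± 0.258 (SE, edgeR, adjusted p = 0.812), with a 95% confidence interval of 74.7 to 163.1% of CTRL, and without RbpjΔEC 3 it was -0.23.

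Ddah1 is abundant in proximal tubule, and tubule genes were uneven over the libraries. RbpjΔEC 3 had the most of 3 proximal tubule genes, with Lrp2 at 129.2 CPM against 13.7 to 40.4 CPM in the other 5 libraries, Slc34a1 at 73.5 CPM against 6.24 to 22.0 CPM, and Cubn at 21.9 CPM against 4.69 to 7.56 CPM. The genes of later nephron segments were not highest in this library, and the sum of the 10 tubule and collecting duct markers was 426.5, 282.4 and 279.2 CPM in CTRL and 154.5, 104.6 and 385.4 CPM in RbpjΔEC (exact permutation test, two-sided, p = 0.3). Among these 10 markers 1, Scnn1g, was called lower and none higher, and none was at 0 in every library. The part of tubule RNA in the Ddah1 values was not tested.

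**Figure D4:**
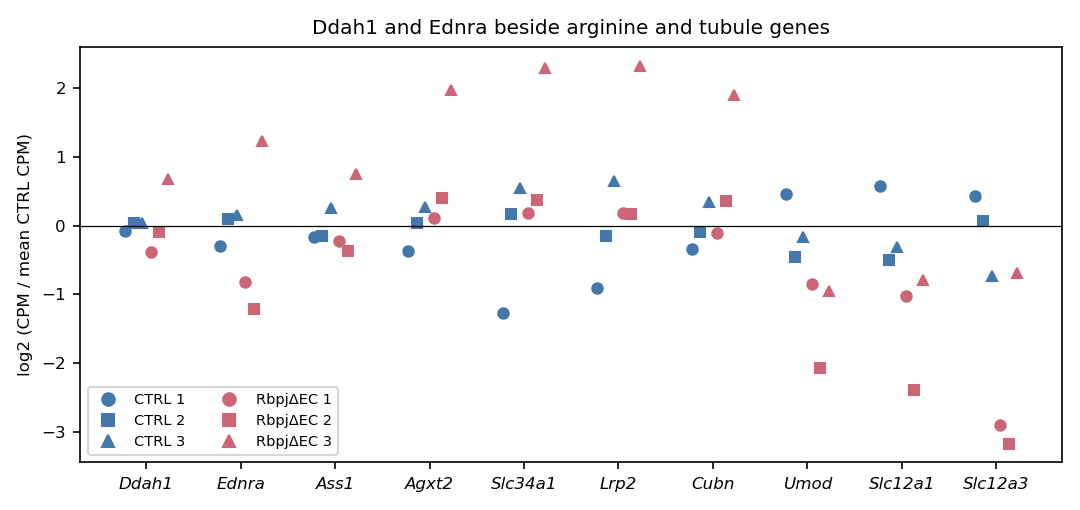
Ddah1 and Ednra beside 2 arginine pathway genes (Ass1, Agxt2) and tubule markers, as log2 of the CPM in each library over the mean CTRL CPM of that gene; 0 is the CTRL mean, blue is CTRL, red is RbpjΔEC, and the shape gives the replicate number. RbpjΔEC 3 is the highest library for the first 7 genes, and not for Umod, Slc12a1 and Slc12a3. Ass1 and Agxt2 fall outside the rule by which genes of the wider list were named. The arginine transporters Slc7a1 and Slc7a2, which are not shown, were lowest in RbpjΔEC 3.

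Beyond the 9 genes, 36 other genes of endothelin processing, nitric oxide synthesis, cofactor and arginine supply and the cyclic GMP response were listed by their known roles. Of these 28 were tested, 1 was called lower, none was called higher, 19 had fold changes below 0 and 9 above 0, with a median log2 value of -0.09. At an unadjusted p under 0.05 edgeR gave 7 of the 28 lower and 1 higher, beside 8.62% lower and 8.88% higher among all tested genes. The groups did not overlap in 10 that were lower and 1 that was higher, beside 23.0% of all tested genes in either direction. Called genes are read against 0.559% lower and 0.575% higher.

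The called gene was Pde3a, a phosphodiesterase that breaks down cyclic AMP and is inhibited by cyclic GMP, known from vascular smooth muscle and platelets. It was at 25.4, 33.3 and 30.7 CPM in CTRL and at 13.5, 13.8 and 19.0 CPM in RbpjΔEC. All RbpjΔEC libraries were clearly below all CTRL libraries, and the log2 fold change was -0.95 ± 0.148 (SE, edgeR, adjusted p = 0.0193). The call was lost without CTRL 3 (adjusted p = 0.0959), without RbpjΔEC 1 (0.0900) or without RbpjΔEC 2 (0.0823), with the direction unchanged in each. Of the 11 tested mural markers 10 had fold changes below 0, Kcnj8 being the exception, and Acta2 was at 9.43 to 11.5 CPM in CTRL and 2.58 to 5.52 CPM in RbpjΔEC, and the part of mural RNA in the Pde3a value was not tested.

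The 3 subunits of soluble guanylate cyclase, the receptor of nitric oxide, were all lower in RbpjΔEC without overlap, and none was called by edgeR with all 6 libraries under the settings above. Gucy1b1 was at 2.64, 2.43 and 2.16 CPM in CTRL and at 0.959, 1.07 and 1.37 CPM in RbpjΔEC (log2 fold change -1.09, edgeR, adjusted p = 0.0803). Gucy1a2 was at 1.95, 1.61 and 1.42 CPM in CTRL and at 0.312, 0.525 and 1.12 CPM in RbpjΔEC (log2 fold change -1.35, edgeR, adjusted p = 0.139). The third, Gucy1a1, named after its values were seen, was at 6.36, 4.90 and 6.23 CPM in CTRL and at 1.34, 1.00 and 3.97 CPM in RbpjΔEC (log2 fold change -1.48, edgeR, adjusted p = 0.182). These subunits are known mainly from smooth muscle and pericytes, and the pericyte receptor Pdgfrb was likewise at 8.24 to 13.6 CPM in CTRL and at 2.88, 2.98 and 6.54 CPM in RbpjΔEC. Other settings called some of them: Gucy1a1 with DESeq2, with the replicate number as a block and without RbpjΔEC 3, Gucy1a2 without RbpjΔEC 3, and all 3 without the low-count filter. RbpjΔEC 3 was the highest of its group for all 3 subunits and for Pdgfrb, and the part of mural RNA in these values was not tested.

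Of the direct partners of Nos3, Cav1, which holds the synthase inactive in caveolae, was at 101.1, 91.8 and 108.4 CPM in CTRL and at 78.5, 86.9 and 73.7 CPM in RbpjΔEC. The groups did not overlap, and the log2 fold change was -0.33 (edgeR, adjusted p = 0.0820). Hsp90aa1, a chaperone that activates the synthase and is itself induced by stress, was at 584.6, 985.3 and 746.5 CPM in CTRL and at 1234, 1368 and 1288 CPM in RbpjΔEC, again without overlap (log2 fold change 0.75, edgeR, adjusted p = 0.0989). Without CTRL 2 edgeR called both Cav1 and Hsp90aa1, without the low-count filter it called Cav1, and with the replicate block Hsp90aa1. The immediate-early sum given above was higher in the same libraries, and its part in the Hsp90aa1 value was not tested.

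**Figure D5:**
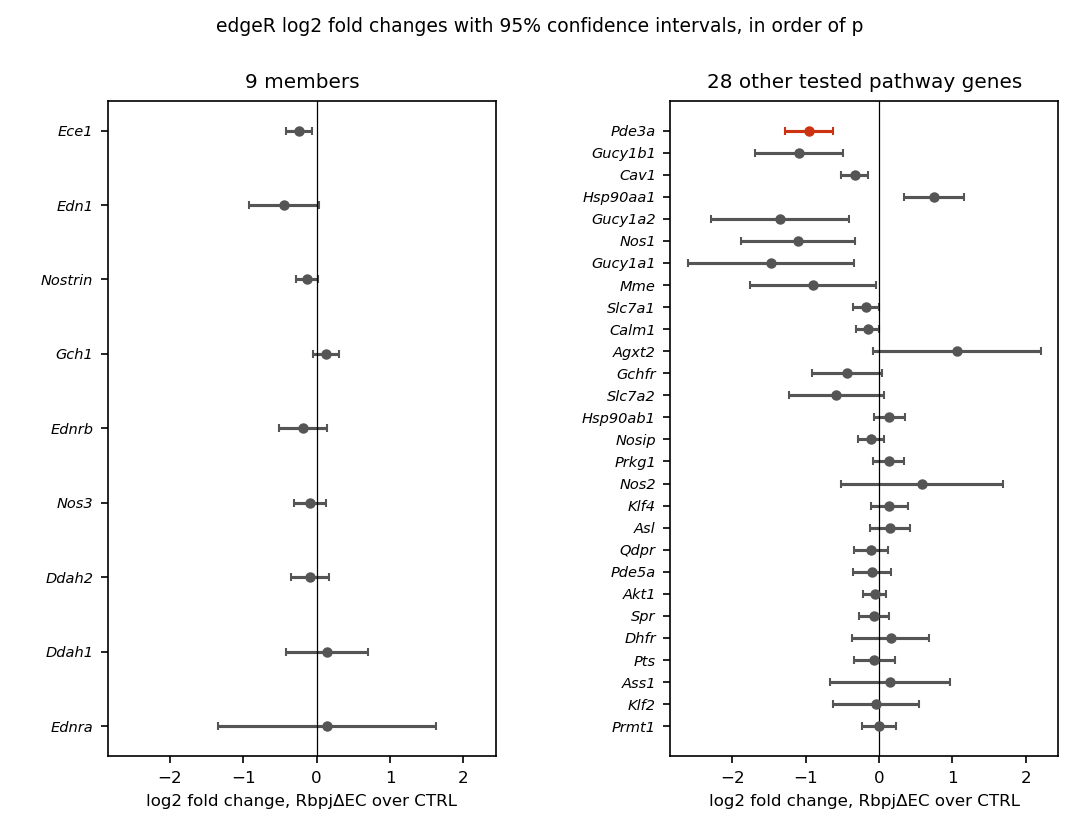
Log2 fold changes of RbpjΔEC over CTRL with 95% confidence intervals from edgeR, in order of p, for the 9 genes (left) and for the 28 tested genes of the wider list (right); red marks the called gene. The intervals of 8 of the 9 genes reach or cross 0, Ece1 being the exception before adjustment, and on the right Pde3a is the one gene called.

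Other endothelin and nitric oxide synthase genes were low or uneven. Edn2 had no count in any library, and Edn3 was at 0.374, 0.0423 and 0.142 CPM in CTRL and at 0, 0.0477 and 0.125 CPM in RbpjΔEC, below the filter. Edn1 was therefore the only endothelin gene measured well above the floor. Nos1, the neuronal synthase, which the kidney expresses in the macula densa, was at 6.76, 3.11 and 5.80 CPM in CTRL and at 1.43, 3.12 and 2.75 CPM in RbpjΔEC (log2 fold change -1.10, edgeR, adjusted p = 0.146). Its groups overlapped, DESeq2 called it lower, as did edgeR without CTRL 2 or without the low-count filter, and Slc12a1, a salt transporter of the same nephron segment, was at 64.0 to 133.9 CPM in CTRL and 17.2 to 52.3 CPM in RbpjΔEC. Nos2, the inducible synthase, was at 28.6, 25.5 and 23.7 CPM in CTRL and at 37.3, 59.4 and 20.0 CPM in RbpjΔEC (log2 fold change 0.58, edgeR, adjusted p = 0.542). RbpjΔEC 3 was its lowest library and the other 2 RbpjΔEC libraries were above all CTRL libraries. Without RbpjΔEC 3 edgeR called Nos2 higher (adjusted p = 0.0388). Without RbpjΔEC 2, its highest library, the log2 fold change fell to 0.15 (edgeR, adjusted p = 0.835).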

How the data were processed

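RNA of kidney ECs sorted from 3 CTRL and 3 RbpjΔEC mice was analysed, grouped by the sample labels. The authors trimmed the reads (Trim Galore 0.6.4), aligned them with STAR 2.6.1d to GRCm38.p6 and counted them per gene with featureCounts (Subread 1.6.4), and deposited whole-number counts without normalization. Libraries were made from total RNA with a low-input stranded kit and PCR, without molecular identifiers, so counting errors and floors cover counting only. The deposited counts were scaled by TMM and tested with edgeR 4.0.16 under R 4.3.3 (glmQLFit with robust estimation, glmQLFTest, filterByExpr with a minimum count of 10, Benjamini-Hochberg adjustment over 18438 genes, threshold 0.05). Standard errors were the log2 fold change over the square root of F, and 95% intervals used the fit's degrees of freedom. Marker sums, and log2 ratios to them, were compared by exact permutation tests. DESeq2 1.42.0 was an alternative, as were other scalings and filters, the replicate number as a block, and each library left out in turn. Coordinates and exon lengths came from GENCODE M21 (GRCm38), an earlier release than that of the counting, and promoters from RefSeq.

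The 9 genes and all lists were chosen with earlier results of these data known. Named from the wider list were the genes past the threshold, the 5 with the smallest p, and Edn2, Edn3, Nos1 and Nos2; exceptions are marked. For the gene of the 9 with the smallest p, the 3 genes of highest correlation were named. No pair of libraries had identical counts. The p-values rest on the spread between libraries of different mice, in which mouse, sorting and library preparation cannot be told apart. The fibroblast, podocyte and immune lists had 1 gene called lower, none called and 1 called higher, and their sums were 6.10 and 2.02, 3422 and 2740, and 14.9 and 26.0 CPM in CTRL and RbpjΔEC. Values of 1 listed gene are left out here.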

Additional observations from a re-analysis of the deposited data

How the results depend on the processing

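Of the 9 genes, none was called under the main settings and under the alternatives except for 2 without the low-count filter (Edn1 and Ece1). The number of all genes called, 209, was 1436 without the filter, 584 with DESeq2, 344 with the replicate block and 21 to 700 when 1 library was left out; the number of the wider list, 1, was 7, 3, 3 and 0 to 4 in the same order. Scaling by library size alone gave 241 calls, 159 higher and 82 lower. Directions held under every alternative for Edn1, Ece1, Ednrb, Nos3, Nostrin and Gch1, but Nos3 and Ednrb came close to 0. Their log2 fold changes ranged from -0.193 to -0.00448 and from -0.322 to -0.0228 when 1 library was left out. That of Edn1 ranged from -0.627 to -0.2795. Leaving out 1 library moved the log2 fold change of Ddah1 between -0.226 and 0.348, of Ddah2 between -0.192 and 0.0373, of Ednra between -0.988 and 0.526 and of the Ednra to mural ratio between -0.622 and 0.536, and the replicate block gave -0.138 for Ednra; the library that turned each sign was RbpjΔEC 3 for Ddah1, CTRL 3 for Ddah2, RbpjΔEC 3 for Ednra, and RbpjΔEC 3 or CTRL 1 for the ratio. Pde3a had adjusted p between 0.00129 and 0.0959 when 1 library was left out. The replicate numbers mark no stated batch or litter, and same-numbered libraries deviated together only weakly (r = 0.00544 to 0.0231). No library was closest to its own number, so same-numbered libraries were not taken as pairs. The CPM filter left no value for Ednra. Depth limits Ednra most, with 5 to 26 counts per library. Causes of these shifts were not tested.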

Other observations

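Of the supply and control genes around Nos3 that are not described above, none was called by edgeR, and those named here were chosen after their values were seen. Klf2 and Klf4, flow-responsive transcription factors that raise Nos3 in ECs, were at 667.2 ± 201.9 and 541.1 ± 95.1 CPM in CTRL and at 648.8 ± 38.5 and 596.1 ± 30.6 CPM in RbpjΔEC (SD, n = 3 each, log2 fold changes -0.04 and 0.14, edgeR, adjusted p = 0.950 and 0.561). Pts and Spr, the tetrahydrobiopterin enzymes after Gch1, had log2 fold changes of -0.06 and -0.07 (edgeR, adjusted p = 0.829 and 0.751). Gchfr, the feedback protein that binds the Gch1 enzyme, was at 3.68 ± 0.477 CPM in CTRL and 2.72 ± 0.339 CPM in RbpjΔEC (SD, n = 3 each, no overlap, log2 fold change -0.44, edgeR, adjusted p = 0.327).

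Slc7a1, the cationic amino acid transporter that brings arginine into ECs, was at 58.5, 53.3 and 52.4 CPM in CTRL and at 52.1, 47.5 and 45.7 CPM in RbpjΔEC, where the groups did not overlap (log2 fold change -0.18, edgeR, adjusted p = 0.289). Slc7a2, a second transporter of this family, was at 1.92, 1.52 and 1.61 CPM in CTRL and at 1.38, 1.00 and 0.973 CPM in RbpjΔEC, again without overlap (log2 fold change -0.59, edgeR, adjusted p = 0.334). Agxt2, another enzyme that breaks down methylated arginines, was at 0.349, 0.465 and 0.545 CPM in CTRL and at 0.491, 0.596 and 1.77 CPM in RbpjΔEC, with overlap and with RbpjΔEC 3 far above the rest (log2 fold change 1.06, edgeR, adjusted p = 0.321). Downstream, the cyclic GMP-dependent kinase Prkg1 was at 40.3, 41.4 and 44.9 CPM in CTRL and at 44.6, 41.6 and 52.4 CPM in RbpjΔEC (log2 fold change 0.13, edgeR, adjusted p = 0.510), and Pde5a, the phosphodiesterase of cyclic GMP, had a log2 fold change of -0.10 (edgeR, adjusted p = 0.693).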
